A study of Mus musculus with 16 samples.

Results

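The 10 genes described here encode NF-κB subunits and the regulators that NF-κB signaling feeds back on. They are the subunit genes Nfkb1, Nfkb2 and Relb, the IκB family genes Nfkbia, Nfkbiz and Bcl3, the ubiquitin-system genes Tnfaip3 and Birc3, the RNase gene Zc3h12a and the adaptor gene Tifa. They were chosen by name, for their role in the pathway, out of 49585 genes in the deposited table. The choice was made with earlier results of these data known, so shares of all genes set beside the members are descriptions only. All 10 had enough reads to be tested among 12559 genes. RNA sequencing was performed on 16 small intestinal organoid cultures in 4 groups of 4. Atg16l1 ΔIEC organoids were grown from villin-cre+; Atg16l1 fl/fl mice, which lose the autophagy gene Atg16l1 wherever the villin promoter drives Cre, that is in intestinal epithelial cells. Atg16l1 fl/fl organoids came from villin-cre- mice carrying the same floxed alleles, and all donors were on the C57BL/6 background and aged 8–12 wk. Each genotype was left untreated or received recombinant murine IL-22 at 10 ng/ml for 24 h, with EGF, Noggin and R-spondin 1 in the medium of all groups. Every genotype was represented by 2 organoid lines with 2 cultures per line and treatment. The line was read from the organoid number in each sample description, which does not itself name it as a line. Line and genotype cannot be told apart in comparisons of genotypes, and p-values measure the spread between cultures of few lines.

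NF-κB is a family of dimeric transcription factors held in the cytoplasm by inhibitory IκB proteins until a kinase complex marks those inhibitors for destruction. Many genes that NF-κB switches on encode its own subunits and inhibitors, so that each round of signaling builds its own brake. In intestinal epithelium this pathway is known for responses to microbes and to inflammatory cytokines, whereas the IL-22 receptor is known chiefly for activating STAT3.

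Counts on genes ran from 2135000 to 5574860 per culture. Levels are given as normalised CPM, that is counts relative to each culture's library size after TMM scaling, with cultures listed in the order line 1, line 1, line 2, line 2 of the genotype. The smallest count behind any member's value was 19, for Tifa in an untreated ΔIEC culture. Atg16l1 itself had 31.6–51.8 CPM in fl/fl cultures and 0.289–5.96 CPM in ΔIEC cultures, the highest of the latter in replicate 2 with IL-22. Of all pairs of cultures of the same line and treatment, the ΔIEC line 1 cultures with IL-22 differed most (chi-square per degree of freedom of 6.84, against 1.33–3.33 in the other pairs). The IL-22 target Socs3, a feedback inhibitor of STAT3 signaling, rose in fl/fl and in ΔIEC organoids by 4.53 and 4.31 on the log2 scale. Summed immune cell markers reached at most 19.0 CPM with Cd3e at 0 in every culture, and summed stromal and endothelial markers at most 3.69 CPM with Dcn and Cdh5 at 0, against at least 6743 CPM for epithelial markers.

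To place the genes beside their own control regions, the promoter windows of the RefSeq table for GRCm38.p6 (250 bases before to 50 after each annotated start) were searched for the 10-base κB consensus on both strands. Of the 10 members, 7 were in that table (all but Nfkb1, Relb and Nfkbiz), and 5 of these held at least 1 match, namely Nfkb2, Nfkbia, Bcl3, Tnfaip3 and Tifa. A match was held by 5.14% of all 27025 genes listed. The core of STAT sites, TTCNNNGAA, was found for Nfkb2 only, against 9.55% of all genes. Stretches with κB matches are printed on each gene's own strand, 5′ to 3′, with the matches in capitals. For Nfkb2 the stretch before its first annotated start is shown, and the matches at chr19:46305459-46305468 and chr19:46305705-46305714, in the windows of its other starts, are not. A match is a run of letters, not a measured binding site.
Nfkb2, chr19:46304637-46304736, plus strand, the last base next to the annotated start: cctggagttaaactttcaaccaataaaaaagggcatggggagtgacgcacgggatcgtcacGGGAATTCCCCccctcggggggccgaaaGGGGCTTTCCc
Nfkbia, chr12:55492648-55492747, minus strand, the last base next to the annotated start: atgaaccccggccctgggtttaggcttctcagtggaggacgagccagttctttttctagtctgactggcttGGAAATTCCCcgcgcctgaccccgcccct
Tnfaip3, chr10:19015411-19015540, minus strand, the last base next to the annotated start: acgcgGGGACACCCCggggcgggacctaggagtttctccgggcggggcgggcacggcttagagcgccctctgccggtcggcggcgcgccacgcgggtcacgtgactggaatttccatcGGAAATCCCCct
Bcl3, chr7:19822734-19822763, minus strand, spanning the annotated start: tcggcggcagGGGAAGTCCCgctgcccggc
Tifa, chr3:127790680-127790706, plus strand, after an annotated start: gttgtgatccGGGATTTTCCaattttc

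The first comparison asked how IL-22 moved the 10 genes in organoids with intact Atg16l1. In fl/fl organoids 9 of 10 rose, while 10.6% of all tested genes did so (edgeR's quasi-likelihood test, Benjamini-Hochberg adjusted p under 0.01). The gene that did not pass was Relb. All 10 had every IL-22 culture above every untreated culture, as did 15.4% of all tested genes. The median log2 fold change was 1.10 over the members and -0.05 over all genes. In ΔIEC organoids 8 of 10 rose, against 9.83% of all tested genes, and Nfkb2 and Relb did not pass. Cultures of these 8 did not overlap between treatments, as in 14.1% of all genes, and the medians were 0.96 for the members and -0.01 for all genes. With organoid line as a block, 10 of 10 rose in fl/fl, against 15% of all tested genes, and 9 of 10 in ΔIEC organoids, against 13.8%. With the cultures of a line summed, which leaves 2 samples a group, 6 and 4 passed. Nfkb1, Nfkb2, Relb and Zc3h12a did not pass there in fl/fl organoids (adjusted p of 0.0143–0.139). In ΔIEC organoids the same genes and also Nfkbia and Nfkbiz did not pass (adjusted p of 0.0124–0.27). Of all 13871 genes tested in that fit, 543 and 635 passed in either direction. The main fit called 2608 and 2195 of 12559. Without the ΔIEC IL-22 culture of highest Atg16l1 level (replicate 2), 7 of 10 rose in ΔIEC organoids, against 10% of all genes. The plot of levels by culture shows all 160 values.

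**Figure D1:**
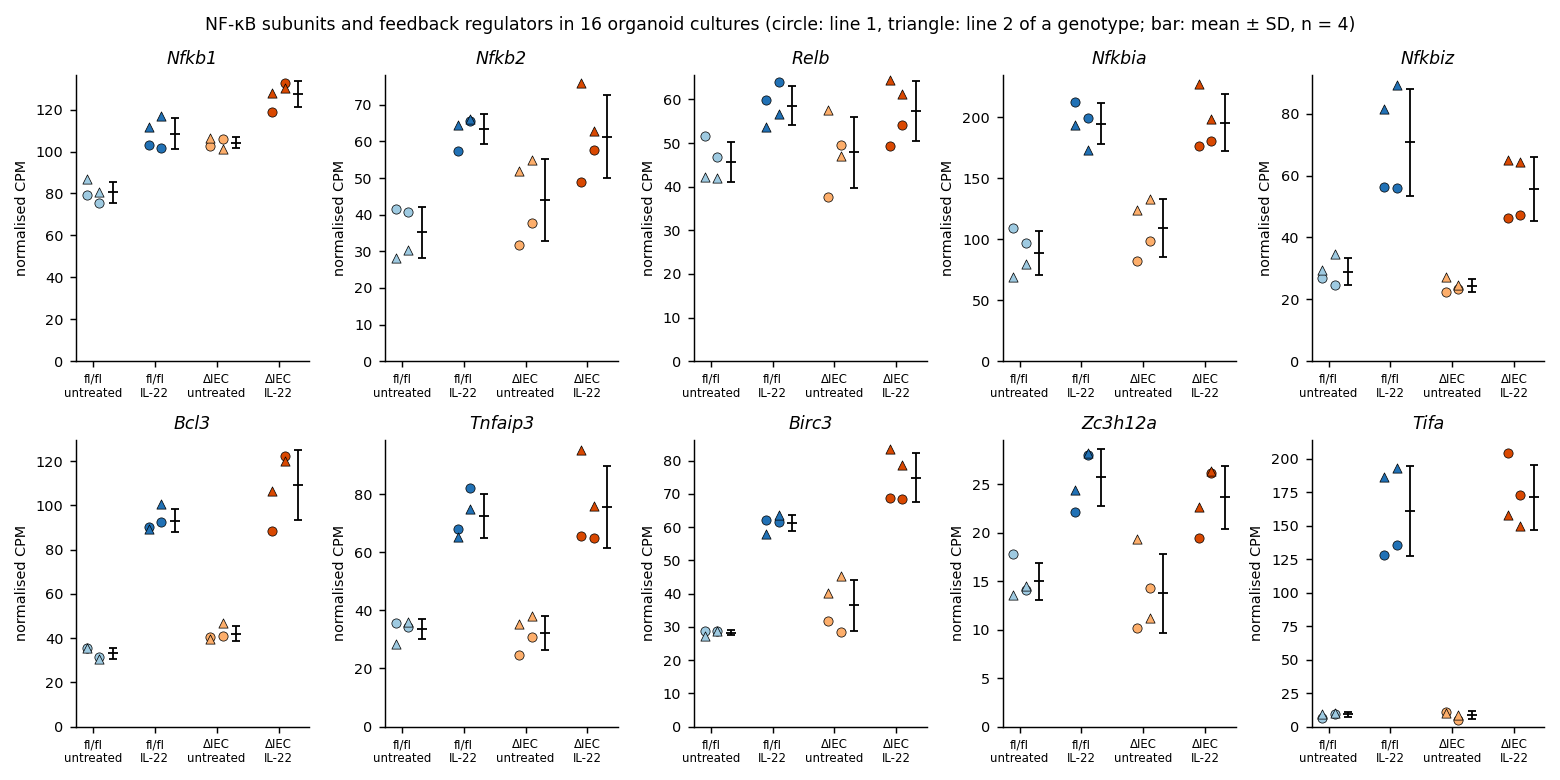
Normalised CPM (vertical axes, from 0, scaled separately for each gene) of the 10 genes in 16 cultures, by genotype and treatment; circles are line 1 and triangles line 2 of a genotype, and bars give the mean ± SD of 4 cultures. Tifa lay between 4.68 and 10.8 CPM in all untreated cultures and between 128 and 204 CPM in all IL-22 cultures, and Relb showed the smallest fitted change in both genotypes.

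Nfkb1 encodes the precursor of a DNA-binding subunit of canonical NF-κB dimers (GRCm38, chr3:135584655-135691547, minus strand). Its levels in fl/fl organoids were 79.2, 75.3, 87.0 and 80.5 CPM untreated and 103, 102, 112 and 117 CPM with IL-22. In ΔIEC organoids they were 103, 106, 107 and 101 CPM untreated and 119, 133, 128 and 131 CPM with IL-22. The untreated ΔIEC cultures thus lay about where fl/fl cultures lay with IL-22, and within each genotype the treatments did not overlap. Nfkb1 rose by 0.43 ± 0.07 on the log2 scale (SE; adjusted p = 0.00014) in fl/fl and by 0.29 ± 0.07 (adjusted p = 0.00425) in ΔIEC organoids, the latter being the smallest change that passed. That ΔIEC call was lost on leaving out any of 6 of the 8 ΔIEC cultures, with an adjusted p of 0.0105–0.0154. It was also lost without ΔIEC line 1 (adjusted p = 0.0527), without ΔIEC line 2 (0.24, adjusted p = 0.199) and after summing the cultures of each line (adjusted p = 0.0806).

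Nfkb2 encodes the precursor of the subunit used by the non-canonical pathway (chr19:46304320-46312385, plus strand). In fl/fl cultures it had 41.5, 40.8, 28.1 and 30.2 CPM untreated and 57.4, 65.7, 64.4 and 66.2 CPM with IL-22. In ΔIEC cultures the values were 31.6, 37.6, 51.9 and 54.8 CPM untreated and 49, 57.7, 75.9 and 62.8 CPM with IL-22. The lines of a genotype differed here, line 1 being the higher line of untreated fl/fl and the lower line of ΔIEC organoids, and the ΔIEC treatments overlapped across lines but not within either line. The increase was 0.84 ± 0.16 (adjusted p = 0.000544) in fl/fl organoids. In ΔIEC organoids the difference was 0.52 ± 0.16 and did not pass (adjusted p = 0.0216), whereas with line as a block it did (0.50, adjusted p = 0.000447), and after summing the cultures of each line it did not (0.52, adjusted p = 0.182). It also passed without ΔIEC IL-22 replicate 1 (adjusted p = 0.00966) and without untreated ΔIEC replicate 4 (adjusted p = 0.00919). Without fl/fl line 2, the fl/fl increase was 0.59 and did not pass (adjusted p = 0.0682). Exons of the neighbours AC114539.1 and Psd on the opposite strand cover 11.6% and 6.52% of Nfkb2 exon bases. The strand setting of the counting is not given in the sources used here. Whether reads there were counted for Nfkb2 or left out as ambiguous is therefore not known. Ambiguous reads made up 0.740–1.13% of each culture's column.

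Relb encodes the subunit that pairs with the Nfkb2 product (chr7:19606217-19629438, minus strand). The fl/fl cultures had 51.7, 46.7, 42.2 and 42.0 CPM untreated and 59.8, 64.0, 53.7 and 56.6 CPM with IL-22. The ΔIEC cultures had 37.7, 49.5, 57.5 and 46.9 CPM untreated and 49.4, 54.3, 64.4 and 61.3 CPM with IL-22. All IL-22 cultures were above all untreated ones in fl/fl but not in ΔIEC organoids. The fitted differences were 0.35 ± 0.12 (adjusted p = 0.0269) in fl/fl and 0.28 ± 0.12 (adjusted p = 0.09) in ΔIEC organoids, neither past the threshold. With line as a block, Relb passed in fl/fl (0.36, adjusted p = 0.00205) and not in ΔIEC organoids (0.26, adjusted p = 0.0293). With the cultures of a line summed, the fl/fl difference of Relb did not pass (0.36, adjusted p = 0.139).

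Of the other subunit genes, Rela, which encodes the main transactivating subunit, rose in both genotypes, from 42.8 ± 2.74 to 73.3 ± 6.86 CPM in fl/fl (SD, n = 4; log2 0.79 ± 0.12, adjusted p = 5.39e-05) and from 45.9 ± 5.04 to 70.8 ± 13.5 CPM in ΔIEC organoids (0.63 ± 0.12, adjusted p = 0.000564). Without ΔIEC line 2 the latter difference was 0.31 (adjusted p = 0.183). With the cultures of a line summed, Rela passed in neither genotype (adjusted p = 0.0102 in fl/fl and 0.0244 in ΔIEC organoids). Rel, which encodes the subunit prominent in lymphocytes, is named because it completes the family. It had 14.2 ± 2.97 CPM untreated and 18.4 ± 3.31 CPM with IL-22 in fl/fl organoids (0.42 ± 0.16, adjusted p = 0.0563) and rose from 14.4 ± 1.27 to 31.2 ± 3.83 CPM in ΔIEC organoids (1.11 ± 0.16, adjusted p = 1.97e-05). The fl/fl difference of Rel was 0.096 without fl/fl line 1 (adjusted p = 0.78) and 0.77 without fl/fl line 2 (adjusted p = 0.0187). In ΔIEC organoids Rel did not pass without ΔIEC line 2 (0.96, adjusted p = 0.0119). The difference between these Rel effects was 0.69 ± 0.23 and did not pass the test of interaction (adjusted p = 0.48). Under IL-22, Rel was higher in ΔIEC than in fl/fl organoids (0.74 ± 0.15, adjusted p = 0.000806), and Rela did not pass (-0.05, adjusted p = 0.787). In untreated organoids the Rel difference was 0.05 (adjusted p = 0.871). Line and genotype cannot be told apart in these comparisons of genotypes.

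Among the IκB family genes, Nfkbia encodes the classical inhibitor IκBα that returns NF-κB to the cytoplasm (chr12:55489410-55492647, minus strand). Levels in fl/fl organoids were 109, 97.2, 68.9 and 80.0 CPM untreated and 213, 199.8, 194 and 173 CPM with IL-22. In ΔIEC organoids they were 81.8, 98.4, 124 and 133 CPM untreated and 177, 181, 227 and 199 CPM with IL-22. Treatments were separate in both genotypes, and the ΔIEC lines stood apart in each treatment with line 2 higher. Nfkbia rose 2.18-fold in fl/fl (log2 1.12 ± 0.14, adjusted p = 6.75e-06) and 1.81-fold in ΔIEC organoids (log2 0.86 ± 0.14, adjusted p = 0.000121). In the promoter stretch printed above, the κB match of Nfkbia lies 29 to 20 bases before the start.

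Nfkbiz encodes IκBζ, a nuclear member of the family that acts as a coactivator at a subset of target genes (chr16:55811375-55838899, minus strand). It had 26.9, 24.5, 29.5 and 34.8 CPM in untreated and 56.2, 55.9, 81.5 and 89.3 CPM in IL-22 cultures of fl/fl organoids. The ΔIEC values were 22.4, 23.4, 27.3 and 24.5 CPM untreated and 46.2, 47.2, 65.0 and 64.2 CPM with IL-22. Line 2 was above line 1 in every genotype and treatment, most widely under IL-22 in fl/fl organoids. The increase was 2.46-fold in fl/fl (1.30 ± 0.16, adjusted p = 5.9e-06) and 2.31-fold in ΔIEC organoids (1.21 ± 0.17, adjusted p = 2.28e-05).

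Bcl3 encodes another nuclear IκB protein, which binds dimers of the Nfkb1 and Nfkb2 products (chr7:19808462-19822770, minus strand). Untreated fl/fl cultures had 35.4, 31.4, 35.4 and 30.8 CPM, and IL-22 cultures 90.3, 92.3, 89.4 and 101 CPM. In ΔIEC organoids the values were 40.3, 41.1, 39.4 and 46.9 CPM untreated and 88.3, 122, 106 and 120.1 CPM with IL-22. The lowest IL-22 value was well above the highest untreated value in each genotype. Bcl3 rose 2.81-fold in fl/fl (1.49 ± 0.10, adjusted p = 2.54e-09) and 2.62-fold in ΔIEC organoids (1.39 ± 0.10, adjusted p = 4e-09), the largest changes among the members other than Tifa. An antisense gene, Gm16175, shares 6.51% of Bcl3 exon bases.

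Of the 3 remaining IκB family genes of the pathway list, Nfkbib, Nfkbie and Nfkbid, none passed for IL-22 against untreated in either genotype. Their log2 differences were 0.27, 0.54 and 0.23 in fl/fl and 0.50, 0.07 and 0.04 in ΔIEC organoids, with adjusted p-values of 0.0282–0.965. Nfkbie and Nfkbid were low, with group means of 3.18–4.53 CPM, and Nfkbib had 17.4–33.9 CPM, so that small changes of the former pair were not detectable at this depth. A difference between these 3 genes and the IκB members was not tested. Between genotypes under IL-22, Nfkbib was higher in ΔIEC organoids (0.67 ± 0.16, adjusted p = 0.00407). Nfkbie and Nfkbid did not pass there (adjusted p = 0.429 and 0.837), and line and genotype cannot be told apart.

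The ubiquitin-system member Tnfaip3 encodes an editing enzyme that removes and adds ubiquitin chains on signaling adaptors and thereby ends NF-κB activation (chr10:19000910-19015657, minus strand). Levels in fl/fl cultures were 35.6, 34.2, 28.6 and 36.1 CPM untreated and 68.1, 82.0, 65.1 and 74.9 CPM with IL-22. ΔIEC cultures had 24.5, 30.8, 35.4 and 38.2 CPM untreated and 65.6, 65.0, 95.2 and 76.1 CPM with IL-22. No IL-22 value overlapped the untreated values of its genotype. Tnfaip3 rose 2.14-fold in fl/fl (1.10 ± 0.14, adjusted p = 5.92e-06) and 2.39-fold in ΔIEC organoids (1.26 ± 0.14, adjusted p = 1.27e-06).

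Birc3 encodes a ubiquitin ligase of the IAP family that works at death receptor complexes and limits non-canonical signaling (chr9:7848699-7873186, minus strand). The untreated fl/fl values, 28.6, 28.6, 27.2 and 28.6 CPM, were nearly the same, and IL-22 cultures had 62.2, 61.5, 58.0 and 63.5 CPM. In ΔIEC organoids, 31.8, 28.5, 40.2 and 45.3 CPM untreated compared with 68.9, 68.5, 83.4 and 78.7 CPM after IL-22. Untreated ΔIEC cultures were spread more widely (SD of 7.66 CPM, against 0.708 CPM in fl/fl), with line 2 above line 1. The increases were 2.16-fold in fl/fl (1.11 ± 0.12, adjusted p = 7.7e-07) and 2.10-fold in ΔIEC organoids (1.07 ± 0.11, adjusted p = 7.71e-07).

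Zc3h12a encodes Regnase-1, an RNase that degrades inflammatory mRNAs (chr4:125118423-125127840, minus strand). It was the lowest member in IL-22 cultures on the CPM scale, with 17.8, 14.0, 13.6 and 14.4 CPM untreated and 22.2, 28.0, 24.4 and 28.2 CPM with IL-22 in fl/fl organoids. The ΔIEC values were 10.1, 14.3, 19.3 and 11.2 CPM untreated and 19.4, 26.1, 22.7 and 26.3 CPM with IL-22. The ΔIEC treatments were separate by a narrow margin, from 19.3 to 19.4 CPM. Zc3h12a rose by 0.78 ± 0.17 (adjusted p = 0.00128) in fl/fl and by 0.82 ± 0.17 (adjusted p = 0.00132) in ΔIEC organoids. Leaving out either line of a genotype ended the call in that genotype (adjusted p of 0.0108 and 0.0611 in fl/fl, 0.0608 and 0.0146 in ΔIEC, without lines 1 and 2 in turn).

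Tifa, which encodes an adaptor that oligomerizes downstream of the kinase ALPK1 and engages TRAF6 (chr3:127789805-127832164, plus strand), showed the largest change of the members. In fl/fl organoids it had 6.72, 9.70, 9.52 and 10.4 CPM untreated and 128, 136, 186 and 193 CPM with IL-22. In ΔIEC organoids the values were 10.8, 4.68, 10.1 and 8.72 CPM untreated and 204, 173, 158 and 149.6 CPM with IL-22. Line 2 was the higher line of fl/fl and the lower line of ΔIEC organoids under IL-22. Tifa rose 17.65-fold in fl/fl (log2 4.14 ± 0.20, adjusted p = 5.49e-12) and 20.14-fold in ΔIEC organoids (log2 4.33 ± 0.20, adjusted p = 3.8e-12). Untreated counts were only 19–46 per culture, against 324–991 with IL-22, so that the untreated level carries most of the counting error. Gm43654 on the opposite strand covers 3.28% of Tifa exon bases.

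**Figure D2:**
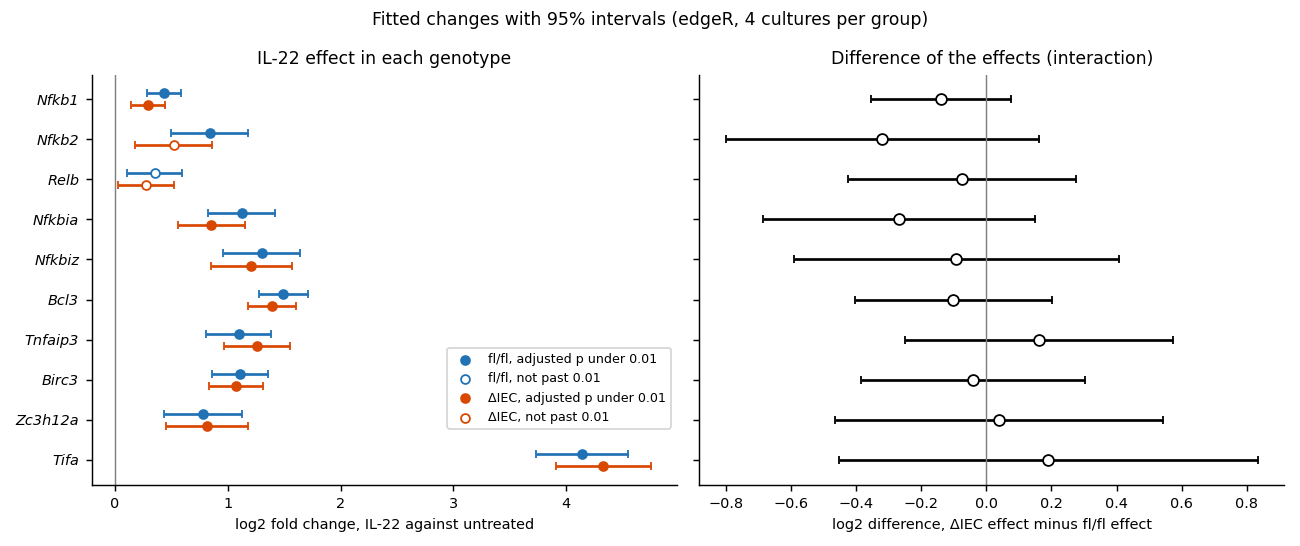
Left, log2 fold change of IL-22 against untreated with its 95% interval in fl/fl (blue) and ΔIEC (orange) organoids, filled where adjusted p was under 0.01; right, the difference between those effects with its 95% interval. The fitted changes ran from 0.28 (Relb, ΔIEC) to 4.33 (Tifa, ΔIEC), and every interval of the difference includes 0.

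Whether the loss of Atg16l1 altered the IL-22 effect was asked with the interaction term. None of the 10 members passed, against 0.0159% of all tested genes, and none had an unadjusted p under 0.05, against 7.26% of all genes; DESeq2 and limma-voom also called none. The differences of effects, ΔIEC minus fl/fl, ran from -0.32 for Nfkb2 to 0.19 for Tifa, with adjusted p-values of 0.827–0.995. For Bcl3 the 95% interval of the difference was -0.40 to 0.20 and for Nfkb1 -0.36 to 0.07, so that differences of effect beyond these sizes lay outside the intervals of those genes. The interval was wider for Nfkb2 (-0.80 to 0.16), Nfkbia (-0.69 to 0.15), Nfkbiz (-0.59 to 0.41) and Tifa (-0.45 to 0.83). For Tnfaip3 it was -0.25 to 0.57, for Birc3 -0.38 to 0.30, for Relb -0.42 to 0.27 and for Zc3h12a -0.46 to 0.54. A p-value that misses the threshold does not show that the genotypes responded alike.

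IL-22 effects were also computed within each of the 4 organoid lines, as differences of mean log2 CPM between 2 treated and 2 untreated cultures. Every member was higher with IL-22 in 4 of 4 lines, as were 25.9% of all tested genes, and 9 members had both treated above both untreated cultures in each line, as did 13.2% of all genes. The exception was Relb, which did so in 3 lines and overlapped in ΔIEC line 1. The narrowest ranges over lines belonged to Relb (0.26–0.39), Bcl3 (1.34–1.51) and Tnfaip3 (1.09–1.23). Nfkb2 ranged most widely in proportion, from 0.37 in ΔIEC line 2 to 1.15 in fl/fl line 2, these being the lines with the highest and the lowest untreated Nfkb2 level. For Tifa the line effects were 3.93–4.60, and the highest was in ΔIEC line 1, where the untreated cultures differed by 1.12 on the log2 scale.

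**Figure D3:**
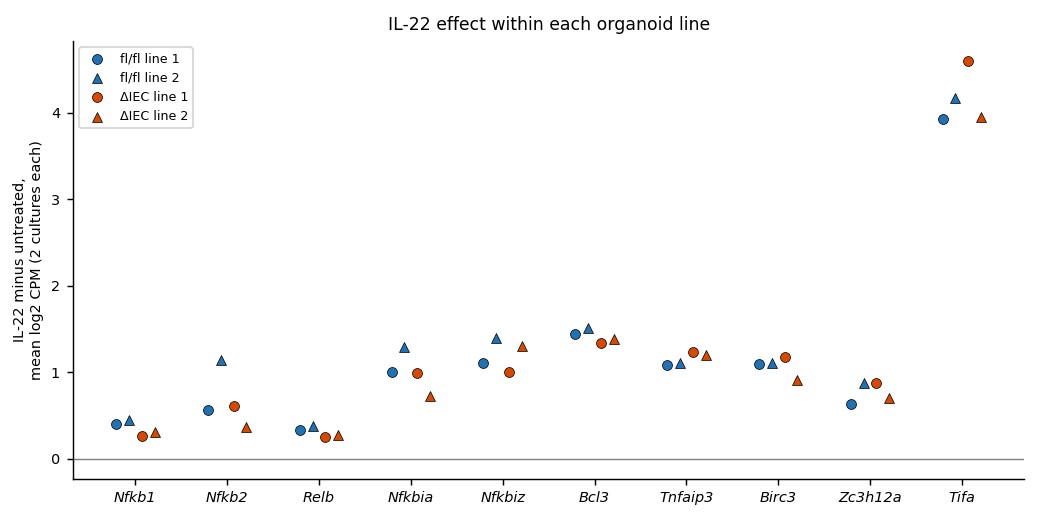
IL-22 minus untreated, as mean log2 CPM of 2 cultures each (vertical axis), for the 10 genes in the 4 organoid lines; blue marks fl/fl, orange ΔIEC, circles line 1 and triangles line 2. All 40 points lie above 0, from 0.26 to 4.60, and the Nfkb2 points are the most unequal among the genes of moderate change.

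The lines of a genotype also differed in level. Line 2 of the ΔIEC organoids was above line 1 in both treatments, without overlap, for 5 of 10 members (Nfkb2, Nfkbia, Nfkbiz, Tnfaip3 and Birc3), compared with 8.75% of all tested genes, and no member showed the reverse. In fl/fl organoids line 2 was above line 1 for Nfkb1 and Nfkbiz (13.4% of all genes) and below it for Relb and Nfkbia (15.4%). The ΔIEC line differences were largest in untreated cultures for Nfkb2 (0.62), Nfkbia (0.52) and Birc3 (0.49).

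The comparisons of genotypes use the same cultures as those of treatment, and their values are given side by side with them. In untreated organoids 1 of 10 members was higher in ΔIEC than in fl/fl organoids, against 3.78% of all tested genes. This was Nfkb1, at 104 ± 2.57 against 80.5 ± 4.89 CPM (SD, n = 4), a difference of 0.38 ± 0.07 (adjusted p = 0.00164). Nfkb1 and Bcl3 had every ΔIEC culture above every fl/fl culture, as did 10.6% of all genes. For Bcl3 the levels were 41.9 ± 3.40 and 33.2 ± 2.49 CPM, and the difference of 0.34 ± 0.11 did not pass (adjusted p = 0.0368). The other 8 members differed by -0.25 (Nfkbiz) to 0.33 (Birc3), with adjusted p-values of 0.0649–0.82. No member passed without ΔIEC line 2 (Nfkb1 0.40, adjusted p = 0.0144) or without fl/fl line 1 (0.32, adjusted p = 0.0311). Those fits hold fewer cultures and called 688 and 535 of all genes, against 1226 in the main fit. Without ΔIEC line 1 it was Birc3 that passed (0.59, adjusted p = 0.00303) and not Nfkb1 (0.37, adjusted p = 0.0219).

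Under IL-22 none of the 10 members passed between genotypes by edgeR, whereas 19.8% of all tested genes did, and DESeq2 also called none. At an unadjusted p under 0.05 there were 4 members, against 44% of all genes. The members nearest the threshold were Nfkb1, with 128 ± 6.24 CPM in ΔIEC and 108 ± 7.39 CPM in fl/fl organoids (0.24 ± 0.07, adjusted p = 0.016), and Birc3, with 74.9 ± 7.42 and 61.3 ± 2.35 CPM (0.29 ± 0.11, adjusted p = 0.0412). These were also the members whose ΔIEC cultures all lay above the fl/fl cultures, as 15.4% of all genes did. Bcl3 differed by 0.24 (adjusted p = 0.0584) and Nfkbiz by -0.35 (adjusted p = 0.0852). Nfkb1 and Bcl3 passed without ΔIEC IL-22 replicate 1 (adjusted p of 0.0094 and 0.00669), Nfkbiz passed in the lower direction without fl/fl line 1 (-0.63, adjusted p = 0.00228), Birc3 passed without ΔIEC line 1 (adjusted p = 0.00589), and Nfkb1 without fl/fl line 2 (adjusted p = 0.00981). The Nfkbiz difference was -0.0033 without fl/fl line 2 (adjusted p = 0.992), and that of Birc3 was 0.14 without ΔIEC line 2 (adjusted p = 0.296).

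Markers of epithelial cell types moved with the same groups. Of 5 enterocyte markers 4 fell with IL-22 in fl/fl and 2 in ΔIEC organoids, their summed level going from 2708–3184 to 797–1253 CPM and from 2868–3325 to 932–1455 CPM. Of 4 stem cell markers 2 and 3 fell, with sums going from 296–490 to 147–173 CPM in fl/fl and from 779–919 to 278–421 CPM in ΔIEC organoids. Between untreated genotypes 3 of 4 stem cell markers were higher and 2 of 5 Paneth cell markers lower in ΔIEC organoids, the Paneth sum being 4491–6739 CPM in fl/fl and 2534–3369 CPM in ΔIEC organoids. Goblet sums were 1529–2424 and 1314–2025 CPM in fl/fl and 1181–1613 and 586–1087 CPM in ΔIEC organoids, untreated and with IL-22. Of 5 goblet markers Muc2 rose in both genotypes (0.96, adjusted p = 0.000113, and 1.17, adjusted p = 3.7e-05), while Zg16 fell in fl/fl and Tff3 and Fcgbp fell in ΔIEC organoids. Of the 5 Paneth markers Mmp7 alone passed with IL-22, rising by 1.61 (adjusted p = 1.02e-06) and 1.59 (adjusted p = 1.41e-06), and the Paneth sums with IL-22 were 5868–7841 CPM in fl/fl and 3151–3818 CPM in ΔIEC organoids. Under IL-22, 4 of 5 Paneth and 3 of 5 goblet markers were lower in ΔIEC than in fl/fl organoids. In bulk RNA fewer cells of a type and less RNA per cell cannot be told apart, and the part of these shifts in the changes of the members was not tested.

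To compare levels between genes, counts were divided by exon length (TPM, which sets the length-scaled count of a gene against the sum over all genes). Exon length was the number of bases in all annotated exons of a gene together, such as 12061 for Nfkb1 and 2475 for Bcl3. It can exceed the length of the transcript a gene mainly makes, so the order of genes below depends on it. On the CPM scale, untreated fl/fl organoids had 80.5 for Nfkb1 and 33.2 for Bcl3. Nfkbia was the highest member in all 4 groups, at 153 ± 22.9 and 315 ± 19.1 TPM in fl/fl and 208 ± 43.6 and 332 ± 45.5 TPM in ΔIEC organoids, untreated and with IL-22. Tifa moved from the last place untreated (8.0 ± 1.70 TPM in fl/fl, 8.20 ± 2.64 TPM in ΔIEC) to the second with IL-22 (132 ± 31.7 and 146 ± 16.8 TPM). With IL-22 the TPM ranges of Tifa and Bcl3 (98.3 ± 7.90 and 121 ± 19.4 TPM) overlapped in both genotypes. The other members formed a group at 22.4–40.8 mean TPM in IL-22 cultures, in which neighbours mostly overlapped. Bcl3 was second in untreated organoids, at 37.6 ± 3.61 TPM in fl/fl, where it overlapped Relb, and at 51.8 ± 4.14 TPM in ΔIEC organoids, where it did not.

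The pathway around the members was described from a list of 114 other genes, of which 88 had enough reads to be tested. With IL-22, 31 rose and 3 fell in fl/fl organoids, and 32 rose and 4 fell in ΔIEC organoids, while 20.8% and 17.5% of all tested genes changed in either direction. Both genotypes shared 27 that rose and 2 that fell. Receptors contributed 4 higher and 1 lower of 11 tested in fl/fl and 4 higher in ΔIEC organoids. Of the group of IκB kinases, related kinases and their partners, 3 of 10 rose in each, namely Tbk1, Tab2 and Tab3. The IκB kinase genes Chuk, Ikbkb and Ikbkg did not pass in either genotype (adjusted p of 0.039–0.909). Adaptors and ubiquitin ligases contributed 9 higher and 1 lower of 26 in fl/fl and 7 higher and 1 lower in ΔIEC organoids. Negative regulators rose in 5 and 6 of 16, and target genes in 9 and 10 of 20, with 1 and 3 lower. No gene of the list passed the interaction. Between genotypes under IL-22, 13 were higher and 9 lower in ΔIEC organoids (25%, against 19.8% of all tested genes). In untreated organoids 4 were higher and 1 lower (5.68%), while 1226 of all 12559 tested genes passed in either direction. Line and genotype cannot be told apart in these comparisons.

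**Figure D4:**
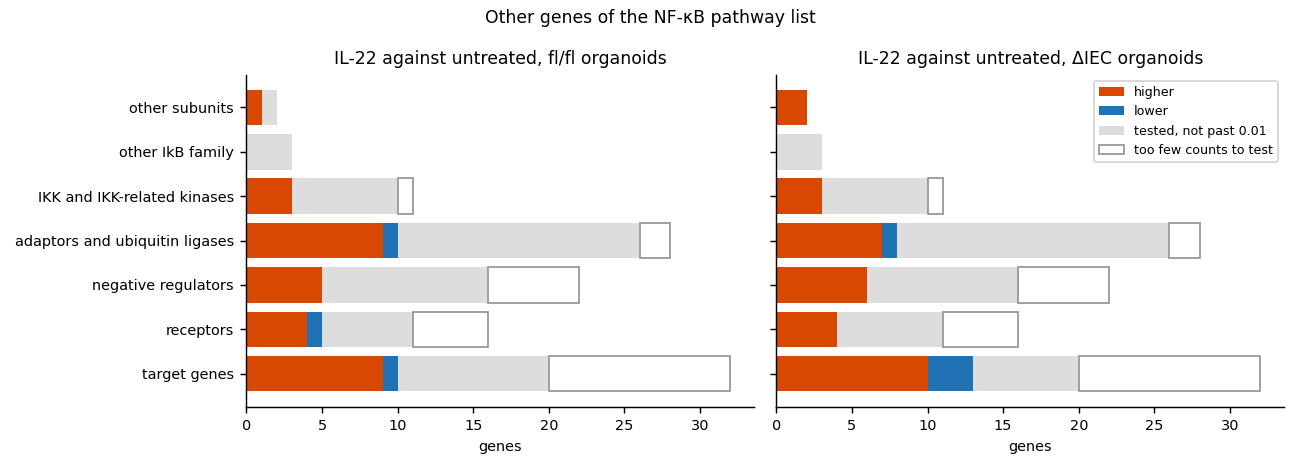
Number of genes (horizontal axis) in each functional group of the pathway list that were higher, lower or not past an adjusted p of 0.01 with IL-22, or had too few counts to be tested, in fl/fl and ΔIEC organoids. In fl/fl organoids 31 of 88 tested genes were higher and 3 lower, and in ΔIEC organoids 32 and 4.

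Alpk1, which encodes the kinase that senses bacterial sugar metabolites and activates the Tifa product, rose from 5.75 ± 3.51 to 55.1 ± 14.7 CPM in fl/fl (log2 3.37 ± 0.27, adjusted p = 2.13e-08) and from 7.31 ± 2.16 to 49.4 ± 5.89 CPM in ΔIEC organoids (2.78 ± 0.27, adjusted p = 1.69e-07). Of the genes on the list that passed in both genotypes with an estimable fold change, it had the largest change in fl/fl but not in ΔIEC organoids. There C3 (5.02), Saa3 (4.31), Tnip3 (3.13) and Icam1 (2.87) rose more, from at most 5, 7, 12 and 14 counts in an untreated ΔIEC culture. Among receptors and adaptors, Tnfrsf1a, a death domain receptor, rose by 0.63 ± 0.09 and 0.70 ± 0.09 (adjusted p = 3.6e-05 and 1.15e-05), and the related Tnfrsf1b by 0.76 and 0.75. Tab2, which carries the kinase TAK1 to ubiquitin chains, rose by 0.47 in fl/fl and 0.80 in ΔIEC organoids, and Bcl10, an adaptor between CARD proteins and the IκB kinases, by 0.45 and 0.51. Tax1bp1, a partner of the Tnfaip3 enzyme and an autophagy receptor, rose by 0.56 and 0.84. Some of these calls were lost with a line left out. The fl/fl change of Bcl10 was 0.45 without fl/fl line 2 (adjusted p = 0.0102), and that of Tnfrsf1b was 0.72 without fl/fl line 1 (adjusted p = 0.0119). The ΔIEC change of Tnfrsf1b was 0.62 without ΔIEC line 1 (adjusted p = 0.0122). Those fits hold fewer cultures and called 1083, 1627 and 1174 of all genes in turn, against 2608 in fl/fl and 2195 in ΔIEC organoids. With the cultures of a line summed, the fl/fl calls of Tnfrsf1a, Tnfrsf1b, Tab2, Bcl10 and Tax1bp1 were lost (adjusted p of 0.0148–0.028). In ΔIEC organoids those of Tnfrsf1a, Tnfrsf1b and Bcl10 were lost (adjusted p of 0.0105–0.0145), while Tab2 and Tax1bp1 still passed. The summed fits called 543 and 635 of all genes.

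Of the target genes on the list, Lcn2, which encodes an antimicrobial iron-binding protein, had at most 1 count in an untreated fl/fl and 2 in an untreated ΔIEC culture. With IL-22 it had 161–317 and 127–269 counts, at 59.5 ± 12.6 and 69.4 ± 13.1 CPM. Against a floor of 3 counts per untreated culture it was at least 62.5-fold and at least 71.2-fold higher. Nos2, the inducible nitric oxide synthase, rose from 15.4 ± 4.87 to 81.4 ± 17.8 CPM in fl/fl and from 38.0 ± 12.3 to 204 ± 36.9 CPM in ΔIEC organoids. Tgm2, a transglutaminase, rose by 0.83 and 0.69 and Ier3, an early response gene, by 1.76 and 1.22. Icam1, an adhesion molecule, rose from 0.718 ± 0.451 to 4.54 ± 0.233 CPM in fl/fl and from 2.94 ± 1.91 to 20.4 ± 3.53 CPM in ΔIEC organoids, with no more than 5 counts in any untreated fl/fl culture. The chemokine Ccl28 fell by 0.66 and 0.88. Leaving aside Lcn2, the adjusted p-values of these target genes were between 4.01e-08 and 0.000182. Without fl/fl line 2, the fl/fl change of Icam1 was 1.98 and did not pass (adjusted p = 0.028). With the cultures of a line summed, the fl/fl changes of Icam1 and Ccl28 did not pass (adjusted p = 0.0106 and 0.012).

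For the 4 members of largest mean change, the genes of most similar pattern were sought over the 16 cultures, by the root mean square difference of log2 CPM after each gene was centred on its mean. Socs3 was nearest to Tifa, with a difference of 0.40 against a spread of Tifa itself of 2.10, followed by Tat (0.40), whose log2 CPM in untreated cultures, with at most 1 count each, was set largely by the added prior count of 2. Nearest to Bcl3 were Mfsd2a (0.14) and Arhgef10l (0.15), against a spread of Bcl3 of 0.73. Nfkbiz was closest to Mst1r (0.18) and Elf3 (0.20) against a spread of 0.66, and Tnfaip3 to Upp1 (0.13) and Mvp (0.16) against 0.61. These are descriptions over cultures that share treatment, line and depth.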

How the data were processed

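Whole-organoid RNA of 16 cultures was sequenced, and the authors deposited 1 table of raw counts per gene and culture (HTSeq), with no normalization. The submitters' processing notes name cutadapt, TopHat2, HTSeq and DESeq2 and the builds mm10 and GRCm38, without versions. The annotation release and the strand setting of the counting are not given in the sources used here. Reads on genes made up 36.3–38.3% of each column, and rows that name no gene were left out. Symbols and coordinates came from GENCODE vM21, which matched 99.5% of gene identifiers.

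The deposited counts were analysed with edgeR 4.0.16 in R 4.3.3 (filterByExpr, TMM, quasi-likelihood test, 16 cultures in 1 fit with a mean per group, two-sided, Benjamini-Hochberg adjustment over 12559 genes, threshold 0.01). Counts ran from 2135000 to 5574860 per culture, and 3 counts were taken as the floor of detection, for counting error only. SE is that of the fitted log2 fold change and intervals are at the 95% level. DESeq2 1.42.0, limma 3.58.1 (voom with duplicateCorrelation), other filters, RLE scaling, thinning, summed cultures, line as a block and leaving out cultures or lines were run as alternatives. The fits were tested on simulated data, in which cultures had no line differences, unlike those measured. Changes of 0.5 on the log2 scale were recovered for 23.1% (fl/fl) and 21.9% (ΔIEC) of genes in the IL-22 comparisons. For the interaction, 8.53% were recovered at 0.5 and 52.3% at 1, so that small differences of effect would mostly be missed. Same-line cultures of the 2 treatments deviated together from their group means (correlations of 0.263–0.438 for fl/fl cultures and 0.0563–0.321 for ΔIEC cultures). The line was read from the organoid numbers in the labels, and on that reading line pairs treatments.

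The members and gene lists were chosen with earlier results of these data known. Named genes are all members, the first 12 of the pathway list past the threshold in both IL-22 comparisons by the larger adjusted p, and for 4 members the 2 genes of most similar pattern. Rel, Rela, the 3 other IκB genes, C3, Saa3 and Tnip3 were named outside this rule.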

Additional observations from a re-analysis of the deposited data

Results flagged for a closer look

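In untreated fl/fl organoids replicate 3 had the lowest Birc3 level, 27.2 CPM, while the other 3 cultures had 28.6 CPM (28.58–28.64). The gap took up 0.964 of the group's range, above Dixon's 95% critical value for 4 samples. It was the only flag among 40 sets of 4 cultures (10 members in 4 groups), where chance flags about 1 in 20, that is about 2. The values differed by under 2 CPM and the culture lay below all IL-22 cultures of its genotype.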

How the results depend on the processing

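The IL-22 counts were 9 (fl/fl) and 8 (ΔIEC) of 10 by DESeq2 and by edgeR with RLE scaling, without a filter on low counts, with at least 10 counts in every culture and with only the groups compared. Without the filter the ΔIEC count held Nfkb2 (adjusted p = 0.000213) in place of Nfkb1 (adjusted p = 0.0295). Thinned to equal depth the counts were 9 and 7. For these settings and for limma-voom the shares of all genes called are not given here. Those counts are therefore descriptions of the members only. With line as a block (replicate block) they were 10 and 9, the same as by limma-voom, and no other call on the members changed under the block; the lines are nested in genotype, so no such fit was possible for genotype comparisons. With the cultures of a line summed, which leaves 2 samples a group, they were 6 and 4, while 543 and 635 of all 13871 tested genes passed. Leaving out a culture or line gave 7–9 in fl/fl and 6–9 in ΔIEC organoids. Calls over all genes in those fits numbered 1083–2796 and 913–2491, against 2608 and 2195 in the main fit. No member changed direction in either IL-22 comparison. The interaction count was 0 in all fits.

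The untreated genotype count of 1 became 2 at an adjusted p under 0.05 and 0 with summed cultures, and ran from 0 to 1 over cultures and lines left out. Over all genes, the 1226 calls became 2559 and 10, and ran from 445 to 1639. The IL-22 genotype count of 0 became 2 at 0.05 and ran from 0 to 2. Calls over all genes went from 2481 to 4168 at 0.05 and ran from 950 to 2672.

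Differences that missed the threshold changed sign as follows; the cause was not tested. Under thinning to 2135000 counts the interaction was 0.025 for Relb and 0.037 for Nfkbiz, and the IL-22 genotype difference of Relb 0.029. That of Nfkbia was -0.0079 by DESeq2, -0.0069 with RLE, -0.0059 with at least 10 counts and -0.0033 by voom. Over cultures and lines left out, the interaction ran from -0.18 to 0.019 for Relb, -0.19 to 0.071 for Birc3, -0.32 to 0.081 for Nfkbiz, -0.10 to 0.22 for Zc3h12a and -0.12 to 0.39 for Tifa. The untreated genotype difference ran from -0.052 to 0.19 for Relb, -0.27 to 0.11 for Tnfaip3, -0.014 to 0.58 for Nfkb2, -0.34 to 0.021 for Zc3h12a and -0.30 to 0.14 for Tifa. The IL-22 genotype difference ran from -0.19 to 0.10 for Relb, -0.18 to 0.23 for Tnfaip3, -0.15 to 0.12 for Nfkbia, -0.27 to 0.12 for Nfkb2 and -0.18 to 0.37 for Tifa.

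The other pathway genes that rose numbered 9–39 in fl/fl and 15–43 in ΔIEC organoids over all settings, the lowest with summed cultures. Depth limits the low genes, Tifa untreated among the members.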
